A study of Mus musculus with 12 samples.

Results

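The circadian clock genes described here are 10 genes of the core clock and its output arm, namely Cry1, Cry2, Per1, Per2, Per3, Nr1d1, Nr1d2, Npas2, Dbp and Tef, measured in mouse liver. They were taken as all probe sets whose annotated symbol is one of these names, which gave 22 of the 45101 probe sets on the array and 10 of its 18194 genes. Of the 10 genes, 8 passed the filter on low signals and entered the tests, together with 12264 genes in all, while Nr1d1 and Npas2 did not pass.

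In the clock, CLOCK or its relative NPAS2 pairs with BMAL1, the product of Arntl, and switches on genes through E-box sequences. Among those genes are the Per and Cry repressors, which shut the pair down, and Nr1d1 and Nr1d2, which encode REV-ERB alpha and beta and repress genes that carry a ROR/REV-ERB element, Arntl, Npas2 and Cry1 among them. Dbp and Tef encode PAR-bZIP activators that act on D-box sequences, which the repressor encoded by Nfil3 also binds. In mouse liver all of these transcripts cycle over the day, with the E-box and D-box genes and the ROR/REV-ERB element genes near opposite phases, and feeding and glucocorticoids reset the phase.

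The series measured gene expression in livers of adult female B6.129 mice with 1 Affymetrix array per sample, 12 arrays in 4 groups of 3. WT (Esr1+/+) and aERKO (Esr1-/-) females, the latter lacking estrogen receptor alpha, received either the normal NIH-31 diet or a high-fat research diet with 60 kcal% fat, for 2 weeks. The labels give the genotype as a homozygous knockout and name no tissue-specific Cre. Neither the hour of tissue collection nor the feeding state at collection is stated in the sources used here. Whether the 3 samples of a group are 3 animals is not stated either, so each p-value reflects sample-to-sample spread that could be technical.

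Esr1 was checked first and was lower in aERKO by -2.07 ± 0.20 (log2, SE) on normal diet and -2.05 ± 0.20 on high-fat diet, and all 6 aERKO arrays lay below all 6 WT arrays. Hepatocyte markers were high on all 12 arrays, with a mean log2 signal of their 6 tested genes between 15.5 and 16.1. Markers of pancreatic acinar cells were high on 4 arrays. Over 9 of 12 listed genes the mean log2 signal reached 13.9 in WT normal replicate 2 and 13.6 in aERKO normal replicate 1. Replicates 3 and 2 of WT high-fat stood at 12.6 and 10.1, against 5.58 to 6.53 on the other 8 arrays. Skeletal muscle genes (7 of 10 listed) averaged 10.8 in aERKO normal replicate 1 and 9.36 in aERKO high-fat replicate 2, against 5.79 to 7.56 elsewhere. Other cell markers moved with genotype. Hepatocyte markers averaged 16.0 to 16.1 in WT normal and 15.6 to 15.8 in aERKO normal, and 15.8 to 16.0 and 15.5 to 15.8 on high-fat diet. Alb, for serum albumin, was lower in aERKO on normal diet (-0.50 ± 0.10, adjusted p = 0.0266), and the macrophage receptor gene Csf1r was lower averaged over diets (-0.40 ± 0.09, adjusted p = 0.0189). Alas2, of red blood cell precursors, was higher by 1.86 ± 0.22 on normal diet (adjusted p = 0.000323) and by 1.89 ± 0.22 under the high-fat diet (adjusted p = 0.000291). Their part in the genotype differences below was not tested. Cry1, Per3, most correlations with Dbp and some differences of Zbtb16 are given with and without the 4 arrays high in pancreatic genes. For other genes, and for the mean of glucocorticoid-induced genes, no value without those arrays is printed.

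Values are MAS5 signals on a linear scale, and each gene is represented by its brightest probe set. Signals of different genes cannot be compared as levels, since probe sets differ in how strongly they bind. Differences are in log2(signal + 16) with their standard error, and a gene was called when limma's adjusted p over all 12264 genes was under 0.05. In bulk tissue, fewer cells of a type and less RNA per cell cannot be told apart.

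Promoters of 9 of the 10 genes, 11 promoters in all, were found in RefSeq's table for build GRCm38.p6. Each holds 300 bases, 250 before and 50 from the transcription start on, written along the gene's own strand. The promoters of Cry1 (chr10:85185005-85185304, minus strand), Per3 (chr4:151044616-151044915, minus strand), Dbp (chr7:45704997-45705296, plus strand) and Tef (chr15:81802423-81802722, plus strand) are shown because Cry1 carries the called differences, and Per3, Dbp and Tef varied together between arrays. Capitals mark an E-box (CACGTG), a D-box (TTANGTAA) or a ROR/REV-ERB element (TNGGTCA), searched on both strands.
Cry1: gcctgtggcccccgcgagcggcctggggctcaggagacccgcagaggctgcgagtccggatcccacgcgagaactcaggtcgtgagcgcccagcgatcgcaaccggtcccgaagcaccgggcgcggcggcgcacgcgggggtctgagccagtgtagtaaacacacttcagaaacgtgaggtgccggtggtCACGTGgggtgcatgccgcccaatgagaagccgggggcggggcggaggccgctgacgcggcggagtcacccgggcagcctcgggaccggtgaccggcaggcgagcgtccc
Per3: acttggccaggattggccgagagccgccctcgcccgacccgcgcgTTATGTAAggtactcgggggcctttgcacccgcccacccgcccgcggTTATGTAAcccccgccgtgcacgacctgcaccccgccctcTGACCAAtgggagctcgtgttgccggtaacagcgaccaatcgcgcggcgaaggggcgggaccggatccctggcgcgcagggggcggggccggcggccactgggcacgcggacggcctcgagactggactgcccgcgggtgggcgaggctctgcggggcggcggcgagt
Dbp: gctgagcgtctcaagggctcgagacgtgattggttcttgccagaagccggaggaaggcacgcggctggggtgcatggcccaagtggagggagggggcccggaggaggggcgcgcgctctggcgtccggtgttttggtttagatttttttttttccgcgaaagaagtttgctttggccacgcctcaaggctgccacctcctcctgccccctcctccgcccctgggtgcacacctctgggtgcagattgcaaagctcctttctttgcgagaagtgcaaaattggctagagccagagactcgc
Tef: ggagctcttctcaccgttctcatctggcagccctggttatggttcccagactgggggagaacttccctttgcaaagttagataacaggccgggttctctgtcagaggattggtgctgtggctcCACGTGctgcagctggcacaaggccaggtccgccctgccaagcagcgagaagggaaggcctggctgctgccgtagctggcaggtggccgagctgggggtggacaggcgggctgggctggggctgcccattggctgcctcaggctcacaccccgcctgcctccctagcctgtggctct
The Cry1 window holds 1 E-box, whose first base lies at -60 from the start, and the Tef window shown holds 1 at -127. Per3 holds 2 D-boxes, at -205 and -158, and 1 match to the letters searched for the ROR/REV-ERB element at -118. The Dbp window holds none of these letters. Among the 11 promoters the E-box stood in 4, of Cry1, Per1 and Tef, against 7.15% of all 32851 promoters. The D-box stood in 1 of 11 against 2.32%, and the ROR/REV-ERB element in 3 of 11, of Cry2, Per3 and Tef, against 11%. An estrogen response element (GGTCA and TGACC with 3 bases between) stood in 0 of 11, against 0.07% of all promoters. The search let any base stand second in the ROR/REV-ERB element. Its matches in Cry2, Per3 and Tef all read TGACCAA, which is TTGGTCA on the other strand, so none had A or G there. These are matches of letters in short windows, not binding sites.

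Among the repressors, Cry1 was the 1 gene of the 8 tested that differed past the threshold, in aERKO against WT on high-fat diet (1.98% of all tested genes called) and between diets in aERKO (0.481% called). Its signals were 731, 471 and 488 in WT on normal diet, 585, 456 and 785 in WT on high-fat diet, and 503, 544 and 602 in aERKO on normal diet. In aERKO on high-fat diet they were 1216, 932 and 1406. All 3 arrays of that last group lay above every one of the other 9, while the remaining groups overlapped one another.

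Group means of Cry1 were 563 ± 145 (SD, n = 3), 608 ± 166, 549.7 ± 49.8 and 1185 ± 239 in the same order. In the high-fat comparison Cry1 rose by 0.96 ± 0.22 (log2) in aERKO over WT, a 1.94-fold difference with limma's adjusted p = 0.0398. In the diet comparison within aERKO it rose by 1.07 ± 0.22, a 2.10-fold difference with adjusted p = 0.0487. Both comparisons use the same 3 aERKO high-fat arrays, so they are not separate observations. In the other pair of comparisons, the difference was -0.01 (95% interval -0.48 to 0.46) between genotypes on normal diet and 0.10 (-0.36 to 0.57) between diets in WT. The test of whether diet acted differently in the genotypes gave 0.97 ± 0.31, unadjusted p = 0.00729 and adjusted p = 0.729 with limma, so that difference did not pass.

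Both calls sit close to the threshold. Over 27 alternative settings the genotype difference on high-fat diet ran from 0.77 to 1.15 and stayed called in 17, and the diet difference in aERKO ran from 0.91 to 1.23 and stayed called in 8. Without the 4 arrays high in pancreatic genes the differences were 0.98 (adjusted p = 0.221) and 1.01 (adjusted p = 0.162), of about the same size with fewer arrays.

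**Figure D1:**
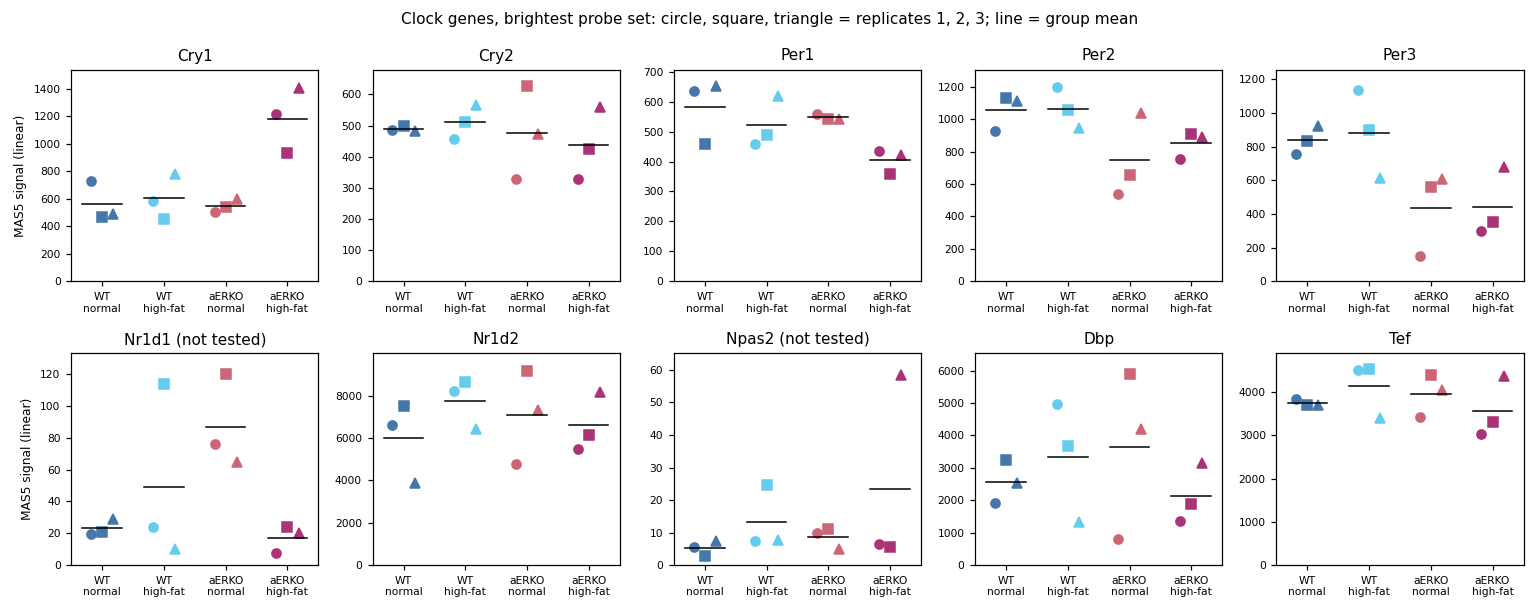
MAS5 signal (linear axis from 0) of the brightest probe set of each of the 10 genes. Points are the 3 arrays of each of the 4 groups (circle, square and triangle for replicates 1, 2 and 3), and lines are group means. The 3 aERKO high-fat arrays of Cry1, at 932 to 1406, lie above all other arrays, and Per3 is at 758 to 923 in WT normal against 147 to 607 in aERKO normal.

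Cry2, the other cryptochrome repressor, was called in none of the comparisons. Its signals were 487, 500 and 484 in WT normal, 455, 511 and 565 in WT high-fat, 328, 626 and 474 in aERKO normal, and 327, 423 and 560 in aERKO high-fat. All 4 groups overlapped, and the lowest and highest arrays both came from aERKO. The 95% interval of the genotype difference ran from -0.57 to 0.39 on normal diet and from -0.72 to 0.23 on high-fat diet.

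Among the Period repressors, Per3 showed the largest difference between genotypes of the 8 tested genes, but it did not pass the threshold. Its brightest probe set read 758, 831 and 923 in WT normal and 147, 558 and 607 in aERKO normal, groups that did not overlap. On high-fat diet it read 1136, 897 and 613 in WT and 297, 354 and 680 in aERKO, where the highest aERKO array exceeded the lowest WT array. The aERKO normal array at 147 is replicate 1, the one high in both pancreatic and muscle genes, and the WT high-fat array at 613 is replicate 3, also high in pancreatic genes.

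The genotype difference of Per3 was -1.13 ± 0.43 on normal diet, with limma's adjusted p = 0.296. Under the high-fat diet it was -1.01 ± 0.43, with adjusted p = 0.271. Averaged over diets it was -1.07 ± 0.30, with unadjusted p = 0.00322 and adjusted p = 0.0620. The result moved with single arrays. Without aERKO normal replicate 1 the averaged difference was -0.76 (adjusted p = 0.0507) and the normal-diet difference -0.51 (adjusted p = 0.600). The averaged difference was called without aERKO normal replicate 3 (-1.24, adjusted p = 0.0392), without aERKO high-fat replicate 3 (-1.24, adjusted p = 0.0348) and with arrays weighted by their quality (-0.98, adjusted p = 0.0264). Without the 4 arrays high in pancreatic genes it was -0.96 (adjusted p = 0.0937), -0.51 on normal diet and -1.41 on high-fat diet. Fitted with both tissue scores (pancreas and muscle) as covariates, the difference was -0.87 on normal diet (adjusted p = 0.318), -1.18 under the high-fat diet (adjusted p = 0.138) and -1.03 averaged (adjusted p = 0.0562).

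Per3 is covered by 6 probe sets, of which 5 passed the filter. All 5 had a negative genotype difference in both diets, from -1.13 to -0.48 on normal diet and from -1.31 to -0.73 on high-fat diet, and averaged over diets from -1.07 to -0.71. Fitted over 25412 probe sets, 0 of the 5 were called and the lowest adjusted p of the averaged difference was 0.0706. The 5 probe sets measure the same RNA on the same arrays, so they are not independent. The sixth probe set, at 10.9 to 83.0 over the 12 arrays, was above the array's median on 1 array. Diet did not separate the Per3 values, with a difference of 0.04 in WT (95% interval -0.88 to 0.95) and 0.16 in aERKO (-0.76 to 1.07).

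**Figure D2:**
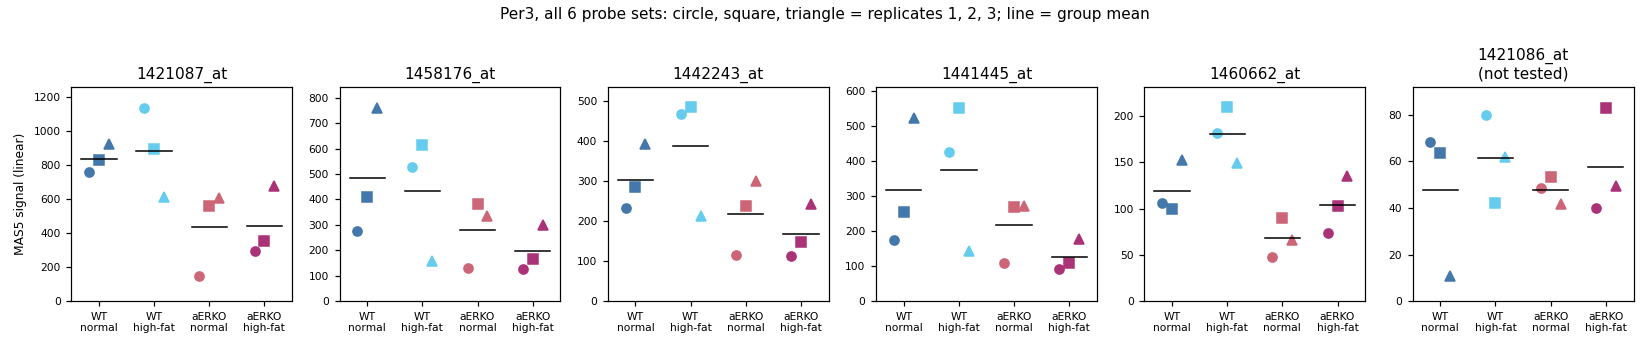
MAS5 signal (linear axis from 0) of the 6 Per3 probe sets, with the 3 arrays of each group as points (circle, square and triangle for replicates 1, 2 and 3) and group means as lines. In the 5 tested probe sets the aERKO means lie below the WT means on both diets. The genotypes do not overlap on either diet in the fifth panel and on normal diet in the first, and the sixth probe set is near background.

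Per2 had lower mean signals in aERKO as well. Its brightest probe set read 928, 1128 and 1113 in WT normal, 1198, 1054 and 942 in WT high-fat, 538, 657 and 1040 in aERKO normal and 753, 911 and 892 in aERKO high-fat. On high-fat diet the genotypes did not overlap, while on normal diet aERKO replicate 3 reached into the WT range. The genotype difference was -0.54 ± 0.20 on normal diet with adjusted p = 0.281, -0.31 ± 0.20 under the high-fat diet with adjusted p = 0.497, and -0.43 ± 0.14 averaged (adjusted p = 0.105). Without aERKO normal replicate 3, Per2 was called on normal diet (-0.81, adjusted p = 0.0375) and averaged over diets (-0.56, adjusted p = 0.0135). Leaving out single arrays gave -0.81 to -0.34 on normal diet. Over all 27 alternatives that difference ran from -0.81 to -0.21, with this 1 call. The averaged difference ran from -0.56 to -0.27 over 26 alternatives, again with 1 call. All 3 Per2 probe sets had a negative averaged difference, from -0.43 to -0.08, smaller in the dimmer sets. By diet the sets disagreed. The second brightest gave -0.002 on normal diet and -0.61 ± 0.30 on high-fat diet, where the brightest gave -0.54 and -0.31. Its limma adjusted p on high-fat diet was 0.393 over 25412 probe sets.

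Per1, which glucocorticoids and cAMP signals also switch on quickly, read 635, 459 and 653 in WT normal, 459, 487 and 620 in WT high-fat and 559.5, 542 and 543 in aERKO normal. In aERKO on high-fat diet it read 436, 360 and 423, below every array of the other groups. The diet difference in aERKO was -0.42 ± 0.17 (unadjusted p = 0.0238, adjusted p = 0.362), and the genotype difference on high-fat diet was -0.34 ± 0.17 (adjusted p = 0.353), so neither passed. As a group, the aERKO high-fat arrays therefore stand highest for Cry1 and lowest for Per1, in signal order and not by a test that passed. Array by array the 2 genes did not oppose each other. Their deviations from the group means had r = 0.64 over the 12 arrays. Within aERKO high-fat, replicate 2 read lowest for both Cry1 (932) and Per1 (360).

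The REV-ERB genes gave no call. Nr1d1 was measured by 1 probe set that exceeded its array's median on 2 of 12 arrays, with signals from 7.60 to 119.8, and no difference was computed. Nr1d2 was bright, at 6598, 7515 and 3892 in WT normal, 8209, 8640 and 6419 in WT high-fat, 4766, 9168 and 7327 in aERKO normal and 5505, 6141 and 8179 in aERKO high-fat. In this brightest probe set all 4 groups overlapped. Among the comparisons of 2 groups its largest difference was 0.41 ± 0.26 for diet in WT (adjusted p = 0.720), and its interaction was -0.48 ± 0.36 (adjusted p = 0.874). The second, dimmer Nr1d2 probe set gave 0.71 ± 0.33 for diet in WT. Its limma p was 0.0483 unadjusted and 0.658 adjusted over 25412 probe sets.

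Npas2, the partner of BMAL1 that can stand in for CLOCK, lay below the array's median on all 12 arrays with both probe sets, at 1.30 to 58.6. It was not tested, and a change at that level could not be seen with these arrays.

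Of the output activators, Dbp varied most between arrays of the same group. Its signals were 1910, 3253 and 2537 in WT normal, 4957, 3681 and 1342 in WT high-fat, 809, 5904 and 4195 in aERKO normal and 1366, 1887 and 3143 in aERKO high-fat. The lowest and the highest array of all 12 belonged to the same group, aERKO normal, and differed 7.30-fold. The standard error of a Dbp difference was 0.61, and no comparison passed. On high-fat diet the genotype difference was -0.53 with a 95% interval from -1.84 to 0.78.

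Tef, of the same protein family as Dbp, spread much less. It read 3833, 3713 and 3712 in WT normal, 4521, 4545 and 3393 in WT high-fat, 3419, 4399 and 4047 in aERKO normal and 3039, 3315 and 4376 in aERKO high-fat. The largest of that set's single comparisons was -0.22 ± 0.15 for genotype on high-fat diet (adjusted p = 0.535). All 3 Tef probe sets were negative there, from -0.59 to -0.22. Their lowest limma adjusted p over all probe sets was 0.449.

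Counted over the 8 tested genes, 0 were called for genotype on normal diet, where 1.22% of all genes were called, and 0 for diet in WT, where 0.0734% were. For genotype averaged over diets 0 were called against 4.32% of all genes, and for diet averaged over genotypes 0 against 0.946%. None of all genes was called for the interaction (0% of 12264). At an unadjusted p under 0.05, 2 of 8 members stood out for genotype on normal diet (12.1% of all genes), 2 on high-fat diet (15.2%), 0 for diet in WT (8.28%), 2 for diet in aERKO (10.3%) and 1 for the interaction (5.94%). For genotype averaged over diets the count was 3, Cry1, Per2 and Per3 (19.6%), and for diet averaged over genotypes it was 2, Cry1 and Per1 (12.6%). With so few genes, counts of this size lie near the background shares.

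Groups did not overlap for 1 gene on normal diet, Per3 (15.8% of all genes), and for Cry1, Per1 and Per2 between genotypes on high-fat diet (22.5%). They did not overlap for Cry1 and Per1 between diets in aERKO (16.7%) and for 0 genes between diets in WT (14.3%). The median log2 difference of the 8 genes was -0.28 for genotype on high-fat diet, where 7 of 8 were negative, against -0.03 over all genes. On normal diet it was -0.04 against -0.05. For diet it was 0.08 in WT against -0.00 and -0.09 in aERKO against 0.02.

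**Figure D3:**
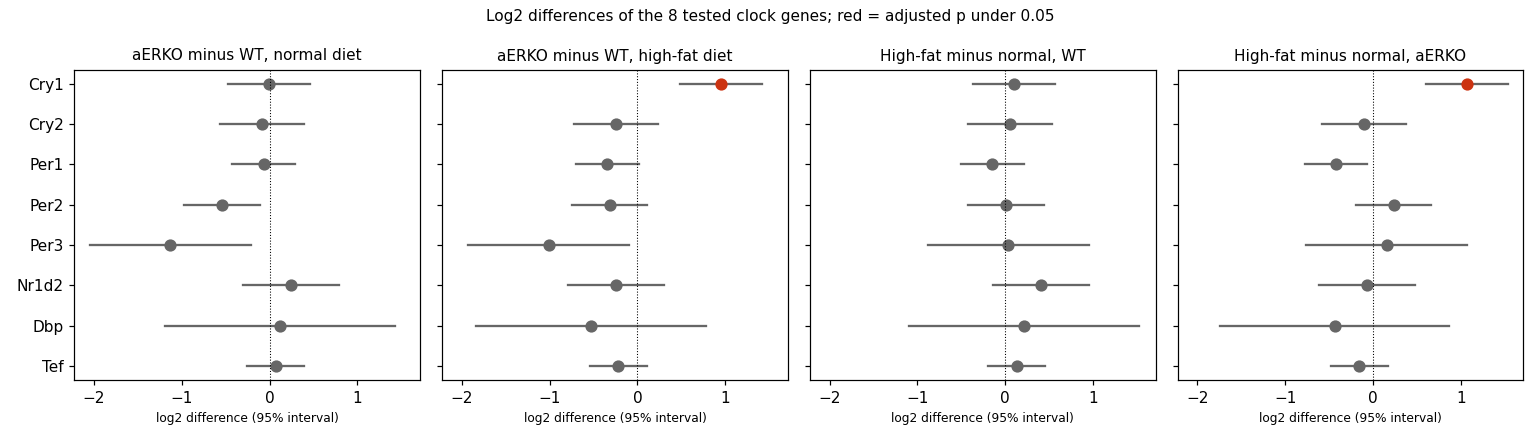
Log2 differences of the 8 tested genes in 4 comparisons (horizontal axis in log2 units, points with 95% intervals; red points have an adjusted p under 0.05). Cry1 is the only red point, at 0.96 for genotype on high-fat diet and 1.07 for diet in aERKO, and Dbp has the widest intervals.

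The arrays of a group differed from one another in a pattern that several clock transcripts shared. Dbp's within-group standard deviation, 0.972 on the log2 scale, exceeded that of 98.2% of the tested genes, and that of Per3, 0.662, exceeded 91.6%, against a median of 0.251. The brightest probe set of Tef, at 0.205, exceeded 37.2%. Deviations of the 12 arrays from their group means were compared as a description, with n = 12 arrays, 8 of them free to vary, and with array and tissue composition shared by all genes.

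Arrays low in Dbp for their group were low in Per3 (r = 0.94), Tef (r = 0.83), Nr1d2 (r = 0.74), Per2 (r = 0.67) and Cry2 (r = 0.64). They were high in Arntl (r = -0.94), Nfil3 (r = -0.90) and Clock (r = -0.75). Arntl, the activator at the head of the loop, stood 7th from the lowest of 12263 genes in its correlation with Dbp. Over all genes, 7.11% had r of at least 0.7 with Dbp and 3.36% had r of -0.7 or below. Cry1 (r = -0.16) and Per1 (r = -0.46) did not follow Dbp closely. Of the other clock genes compared in this way, Hlf ran with Dbp (r = 0.71), while Rora (r = 0.15) and Ciart (r = -0.19) did not follow it.

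The array farthest from its group mean was aERKO normal replicate 1, at -1.73 for Dbp and -1.25 for Per3. For Dbp, aERKO normal replicate 2 stood at 1.11 and WT high-fat replicate 3 at -1.11. The 2 low arrays are high in pancreatic genes and the high one is not. The remaining arrays high in pancreatic genes lay above their group means, WT normal replicate 2 at 0.37 and WT high-fat replicate 2 at 0.34. The acinar and muscle scores had r of -0.58 and -0.55 with Dbp. Without aERKO normal replicate 1, r with Dbp was 0.84 for Per3, 0.87 for Tef, -0.88 for Arntl and -0.78 for Nfil3 over 11 arrays. It was lower in size for Clock (-0.64), Nr1d2 (0.57), Per2 (0.37) and Cry2 (0.25). Without all 4 arrays high in pancreatic genes it was 0.87, 0.90, -0.87 and -0.79 over 8 arrays, of which the lone WT high-fat array deviates by 0 by construction. Over those 8 arrays r was 0.94 for Cry2, 0.40 for Nr1d2, 0.04 for Per2 and -0.39 for Clock. The relation of Dbp with Per2, Nr1d2 and Clock was thus weaker without the arrays left out. That with Cry2 moved in both directions with the arrays used. So few arrays, fewer still free to vary once group means are taken off, fix these r values poorly. Over the 12 arrays the mean of 8 glucocorticoid-induced genes had r = -0.90 with Dbp.

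**Figure D4:**
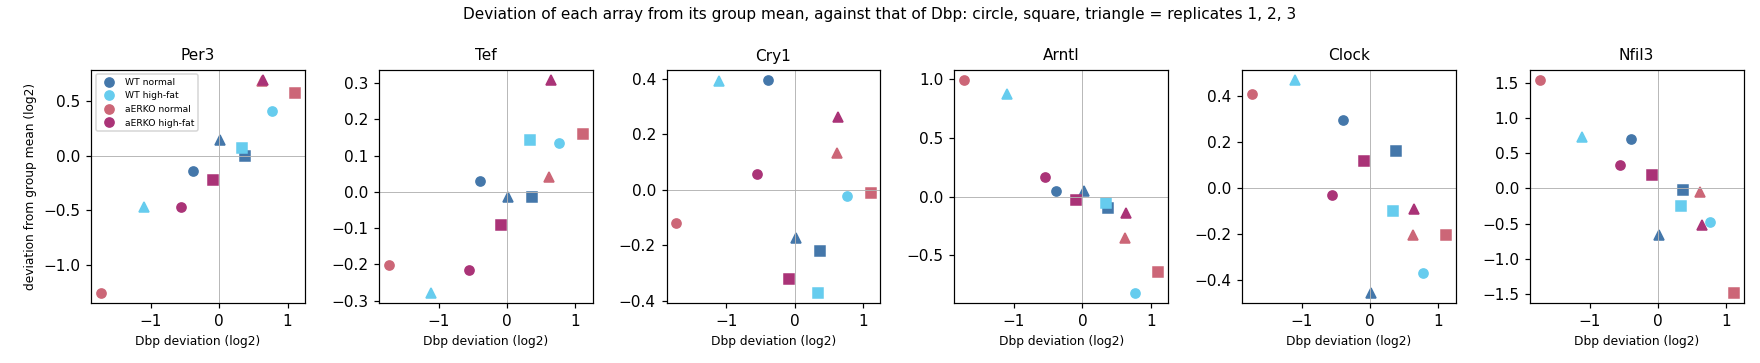
Deviation of each of the 12 arrays from its group mean (log2) for 6 genes, against the deviation of Dbp (horizontal axis, log2). Colours are the 4 groups, and circle, square and triangle are replicates 1, 2 and 3. Points of Per3 and Tef run upward (r = 0.94 and 0.83), those of Arntl, Clock and Nfil3 downward (r = -0.94, -0.75 and -0.90), and Cry1 has r = -0.16, with aERKO normal replicate 1 at the left end.

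Summarised by phase, the mean log2 signal of the 6 tested E-box and D-box genes (Nr1d2, Dbp, Tef, Per1, Per2 and Per3) was 10.7 to 10.9 in WT normal, 10.6 to 11.1 in WT high-fat, 9.88 to 10.9 in aERKO normal and 10.2 to 10.8 in aERKO high-fat. The 4 genes with a ROR/REV-ERB element phase (Cry1, Arntl, Clock and Nfil3) averaged 8.83 to 9.50, 8.66 to 9.70, 8.94 to 10.2 and 9.84 to 10.1. In aERKO on high-fat diet all 3 arrays stood above all WT arrays for the latter genes, while the former genes overlapped between all groups. That separation rests on Cry1, 1 of the 4 and already called on these arrays. Arntl, Clock and Nfil3 read higher in WT high-fat replicate 3 (492, 1057.5 and 1065) than in aERKO high-fat replicate 3 (466, 1008.5 and 990).

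Of the 18 other clock genes listed, 14 were tested and 1 was called, for diet in aERKO, where 0.481% of all genes were called. Rora, which encodes an activator that competes with the REV-ERBs for their element, fell in aERKO on high-fat diet from 3010, 2958 and 2666 on normal diet to 1847, 1859 and 1968. The groups did not overlap, and the difference was -0.60 ± 0.11 (adjusted p = 0.0304). That call was lost under 13 of 27 alternatives, with values from -0.65 to -0.44 throughout. The WT arrays lay between 2160 and 2651, and the interaction, -0.68 ± 0.15, did not pass (adjusted p = 0.373).

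Arntl read 268, 240 and 268 in WT normal, 142, 251 and 492 in WT high-fat, 625, 191 and 236 in aERKO normal and 582, 506 and 466 in aERKO high-fat. The genotype groups overlapped on both diets, and the high-fat difference of 0.94 ± 0.40 did not pass (adjusted p = 0.284). A second, dimmer Arntl probe set gave -0.26 ± 0.55 there (limma adjusted p = 0.887 over 25412 probe sets). It read 141, 136 and 112 in aERKO normal, and its r with Dbp was not computed. Clock gave 0.49 ± 0.24 for genotype on high-fat diet (adjusted p = 0.355).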

How the data were processed

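RNA of 12 liver samples was hybridised to 12 one-colour Affymetrix arrays. Per the submitters' processing notes, the tools were MAS5 and Affymetrix Expression Console, without versions. For each array the authors deposited a linear intensity of every probe set, the MAS5 signal, and the mean without the lowest and highest 2% was 500 on every array. Depth does not apply, and the number of arrays limits the precision. Array medians ran from 75.6 to 114.

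Gene symbols came from the platform annotation, updated through RefSeq, and 34958 probe sets had 1 symbol, 932 several and 9211 were not listed. The brightest probe set of each gene was kept if at least 3 of 12 arrays had it above their own median. log2(signal + 16), which understates differences of dim genes, was fitted with limma 3.58.1 in R 4.3.3 over 4 groups (8 residual and 5.85 prior degrees of freedom, intensity trend), with Benjamini-Hochberg adjustment in 7 comparisons. The median standard error was 0.202 between groups and 0.285 for the interaction. The script was tested on simulated data.

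Named genes were all members, Arntl, Clock, and any called gene of fixed lists of other clock genes, clock outputs, glucocorticoid-induced and immediate early genes, and the nearest genes of called members. Nfil3, Hlf and Ciart, called in none of the comparisons, were named besides for their correlation with Dbp, and Nfil3 for its phase group. The members and lists were chosen with earlier results of these data known. Alternatives covered the pseudocount, filter, scaling, probe set rule, limma settings, cell scores as covariates and left-out arrays. Promoters came from RefSeq's table, and the promoter of Per2 was not used here.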

Additional observations from a re-analysis of the deposited data

How the results depend on the processing

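Over 62 pairs of a gene and a comparison and 1647 values under alternatives, 0 reversed a call, 67 lost a call, 6 gained one and 61 moved by more than the spread. Only pairs already called, those of Cry1, Rora, Noct and Zbtb16, could lose a call, so 67 is not a share of 1647. Calls were kept under 17 and 8 of 27 alternatives for Cry1 and 14 of 27 for Rora. Noct kept its calls under 22 of 27 and 26 of 26, and Zbtb16 under 20 of 27, 26 of 26 and 13 of 26. The call of Cry1 between genotypes on high-fat diet (1 member) became 0 with no filter on low values, with no intensity trend, with pancreatic and muscle scores as covariates and without the 4 arrays high in pancreatic genes, and 2 (Cry1 and Per3) with array weights. Leaving out single arrays gave 0 to 1. It was lost without WT high-fat replicate 1 or 2, aERKO normal replicate 2 or 3, or aERKO high-fat replicate 1 or 3. The call of Cry1 between diets in aERKO (1 member) became 0 with no filter, median centring, quantile normalization, no intensity trend, the mean over probe sets, every probe set on its own row, the cell scores as covariates, without the pancreatic arrays, and with only the groups compared, and leaving out single arrays gave 0 to 1. The Cry1 diet call stayed in 8 of 27 settings, and leaving out single arrays gave limma adjusted p from 0.0386 to 0.193. For genotype on normal diet, leaving out arrays gave 0 to 1 member (Per2). For genotype averaged over diets, array weights gave 1 (Per3) and leaving out arrays gave 0 to 2. The cause was not tested.

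With the replicate number as a block, Cry1 stayed called (0.96, adjusted p = 0.0285, and 1.07, adjusted p = 0.0396), and member counts did not change in any comparison. Same-numbered arrays of different groups did not visibly deviate together (r from -0.30 to 0.21 over 18 pairs). Differently numbered arrays of different groups gave r from -0.25 to 0.28 over 36 pairs. Weak pairing could not be seen with so few arrays per group, so whether the numbers pair the samples is not known. The block lost the call of Zbtb16 for diet averaged over genotypes (adjusted p = 0.0572).

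Over all genes, calls for genotype on high-fat diet were 243, and 944 with array weights, 116 with median centring or no trend, 127 with the cell scores and 60 without the pancreatic arrays. For diet in aERKO they were 59, and 187, 22, 12, 26 and 18 under array weights, median centring, no trend, cell scores and without those arrays. For genotype on normal diet they were 150, and 94, 83, 101 and 80 under median centring, no trend, cell scores and without those arrays, and 71 with only the groups compared. Averaged over diets they were 530, and 844 with array weights, 313 with median centring, 266 with no trend, 239 with cell scores and 182 without those arrays. For diet in WT they were 9, and 0 to 21 over the settings. For the interaction they were 0, and 0 to 2 over the settings. For diet averaged over genotypes they were 116, and 192 with array weights, 76 with cell scores, 26 with median centring, 27 with no trend and 27 without those arrays. Median centring moved the median of all genes on normal diet from -0.05 to 0.09 and the share of higher calls from 48% to 59.6%, and averaged over diets that share went from 47.7% to 73.2%. Without the pancreatic arrays, WT high-fat is 1 array, assumed to vary like the other groups. Fitting only the groups compared was not possible for the interaction and the averaged comparisons.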

Other observations

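Of 15 genes known as clock outputs in mouse liver, 13 were tested and 2 were called, both between genotypes. Of all genes, 1.22% were called for genotype on normal diet, 1.98% on high-fat diet and 4.32% averaged over diets. Noct, which encodes nocturnin and cycles in mouse liver, fell by 1.07 ± 0.19 in aERKO on normal diet (limma adjusted p = 0.0129), and the difference averaged over diets was -0.92 ± 0.14 (adjusted p = 0.00112). Its signals were 3151, 2294 and 3105 in WT normal, 2508, 1809 and 3081 in WT high-fat, 1536, 1089 and 1430 in aERKO normal and 1347, 1568 and 1308 in aERKO high-fat, with all aERKO arrays below all WT arrays. The call on normal diet was lost under 5 of 27 alternatives, and the averaged call was kept under all 26. Elovl3, a fatty acid elongase, rose in aERKO by 3.03 ± 0.20 on normal diet and 3.26 ± 0.20 on high-fat diet (adjusted p = 1.54e-06 and 7.42e-07). It read 308 to 745 in WT and 3303 to 5223 in aERKO. Over the 13 outputs, the median difference was -0.10 on normal diet and -0.12 on high-fat diet.

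Of 8 glucocorticoid-induced genes, 1 was called. Among all genes the called share was 1.22% for genotype on normal diet, 4.32% averaged over diets and 0.946% for diet averaged over genotypes. Zbtb16, a transcription factor induced by glucocorticoids, rose in aERKO on normal diet by 1.20 ± 0.22 (adjusted p = 0.0155) and averaged over diets by 0.95 ± 0.16 (adjusted p = 0.00285), and its difference for diet averaged over genotypes was -0.78 ± 0.16 (adjusted p = 0.0341). That diet call was kept under 13 of 26 alternatives and lost without the arrays high in pancreatic genes (-0.88, adjusted p = 0.0968). The call on normal diet was kept under 20 of 27, and without those arrays the difference was 0.86 (adjusted p = 0.205). Of 9 immediate early genes, 8 were tested and 0 were called by limma in the 7 comparisons. At an unadjusted p under 0.05 the count was 2 for diet in aERKO (10.3% of all genes) and 2 for diet averaged over genotypes (12.6%). It was 0 in the other comparisons, where 5.94% to 19.6% of all genes passed.

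The genes whose log2 signals were most like those of Cry1 over the 12 arrays were Pea15a (r = 0.95), Lgalsl (r = 0.92) and Mrpl48 (r = 0.89), and none of them was called between genotypes on high-fat diet (adjusted p = 0.385, 0.249 and 0.391). Pea15a read 351 to 373 in WT normal and 447 to 497 in aERKO high-fat.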
